A study of Mus musculus with 14 samples.

Results

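The let-7 and miR-98 family was followed in the corpus callosum of mice fed cuprizone (CPZ), a copper chelator that kills mature oligodendrocytes and strips the myelin of this white matter tract. The family was taken as the 9 mature miRNAs printed on the array under the names mmu-let-7a, mmu-let-7b, mmu-let-7c, mmu-let-7d, mmu-let-7e, mmu-let-7f, mmu-let-7g, mmu-let-7i and mmu-miR-98, which is 9 of the 566 mouse miRNAs of the array. The members were taken by name, but the family was chosen with earlier results of these data known. All 9 were detected on all 14 arrays. Total RNA from male mice was labelled with 1 dye and read on 14 arrays, 1 sample to an array. The control group (4 arrays) stayed on normal diet. The group called 4wd (4 arrays) received 0.2 to 0.4% CPZ in powdered chow for 4 weeks. The group called 2dr (4 arrays) had the same 4 weeks of CPZ and then 2 days of regular diet, and the group called 2wr (2 arrays) the same 4 weeks and then 2 weeks of regular diet. The mice were 7 to 8 weeks old when CPZ feeding began, and no knockout, transgene or strain was named for these samples in the labels.

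let-7 miRNAs are short RNAs that guide the silencing machinery to messenger RNAs, mainly through the bases at positions 2 to 8 from the 5′ end, called the seed. The family is known from worms to mammals for its part in developmental timing, and its mature members accumulate as neural precursors leave the dividing state. The protein LIN28 blocks their maturation, and messenger RNAs for LIN28, HMGA2 and RAS proteins are among their known targets.

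The sequences are shown because the 9 members share the seed and differ elsewhere by few bases, which bears on how far an array can separate them. All 9 were matched by name in the RefSeq table (GRCm38.p6), and each is printed 5′ to 3′ with the seed in capitals.
mmu-let-7a: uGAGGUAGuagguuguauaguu
mmu-let-7b: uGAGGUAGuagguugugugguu
mmu-let-7c: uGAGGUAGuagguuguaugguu
mmu-let-7d: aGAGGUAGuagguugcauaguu
mmu-let-7e: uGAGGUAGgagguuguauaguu
mmu-let-7f: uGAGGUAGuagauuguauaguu
mmu-let-7g: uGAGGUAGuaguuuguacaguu
mmu-let-7i: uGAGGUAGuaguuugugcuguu
mmu-miR-98: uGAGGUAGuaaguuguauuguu

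The prefix mmu, for mouse, is left off in what follows. The seed GAGGUAG was held by 9 of 9 members and by none of the other mouse miRNAs of the array that could be matched to the table by name (348 matched, members included). Counting positions from 1 at the 5′ end and giving the let-7a base before the position, let-7c differed from let-7a by A19G, let-7e by U9G and let-7f by G12A. Each of these is 1 base of 22. let-7b differed by A17G and A19G, let-7d by U1A and U16C, let-7g by G12U and U18C, and miR-98 by G11A and A19U. let-7i was the farthest from let-7a, with G12U, A17G, U18C and A19U. The 9 members came from 12 hairpin genes in the table, because let-7a, let-7c and let-7f each have 2. Within 10 kb of each other lay the hairpins of let-7a-1, let-7f-1 and let-7d, those of let-7c-2 and let-7b, and those of let-7f-2 and miR-98. The hairpin of let-7c-1 neighboured miR-99a, that of let-7e neighboured miR-125a and that of let-7a-2 neighboured miR-100. Whether labelled RNA of a member also bound the probes of another was not tested.

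The family gave a large part of the miRNA signal of the tissue. On the control arrays the 9 members together gave 34662 ± 12950 signal units (SD, n = 4), which was 25.3 ± 4.1% of the summed signal of all mouse miRNAs. In each of the 14 arrays, 8 members were among the brightest 50 of the 566 mouse miRNAs. The exception was miR-98, which ranked between 58 and 85. All 180 spots of the members were well above background and none was saturated on any array. The image software gave each member an error of 7.1 to 8.2% of its signal on each array.

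By signal on the control arrays, let-7a came first with 8088 ± 3299 units (SD, n = 4), followed by let-7c with 6801 ± 2020, let-7f with 6390 ± 3083 and let-7b with 4350 ± 935. The middle of the order was held by let-7d with 2659 ± 1088 units, let-7g with 2519 ± 1087, let-7i with 2057 ± 767 and let-7e with 1526 ± 612. miR-98 was dimmest with 273 ± 119 units. Because each miRNA has its own probes, which bind with their own strength, this is an order of signals and not of molecules. Some neighbours in it did not separate. let-7c was brighter than let-7f on 2 of 4 control arrays, and let-7a was brighter than let-7c on 3 of 4. On all 14 arrays let-7b was brighter than let-7d, by 1.41 to 2.50 times, and let-7e was brighter than miR-98, by 5.05 to 9.19 times. The other neighbouring pairs kept the control order on 11 to 13 of 14 arrays.

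To compare groups, the signals of an array were set relative to its own 75th percentile, computed from those 170 miRNAs that all 14 arrays detected, and converted to log2. On this scale 0 is the percentile itself and 1 unit is 2-fold. A miRNA was called changed at an adjusted p under 0.05 in limma with at least a 2-fold difference. No member was called at 4wd, 2dr or 2wr against control, or between any other pair of groups. Of the 225 miRNAs tested, 0.444% were called at 4wd against control, 0.889% at 2dr, 0% at 2wr and 0% in each of the other 3 comparisons. Without adjustment, 2 of 9 members had a limma p under 0.05 at 4wd, where 10.2% of all tested miRNAs did in either direction. At 2dr and at 2wr no member had an unadjusted p under 0.05, against 12% and 0.889% of all tested miRNAs.

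The mean of every member was higher than in control after 4 weeks of CPZ, though by less than the call required. The differences ran from 0.13 for let-7i to 0.63 for let-7e, with a median of 0.43 over the 9 members. Among all tested miRNAs the median difference was 0.03, and 52% had a higher mean. The 4wd arrays overlapped the control arrays for 8 of the 9 members. let-7e was the exception, and over all tested miRNAs 6.22% had every 4wd array above every control array. The smaller differences rested on single arrays. Without control replicate 3 the means of let-7g and miR-98 were below control, so that 7 of 9 were higher, and without 4wd replicate 2 that of let-7i was below it, so that 8 of 9 were higher. The median difference without 4wd replicate 1 was 0.29.

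**Figure D1:**
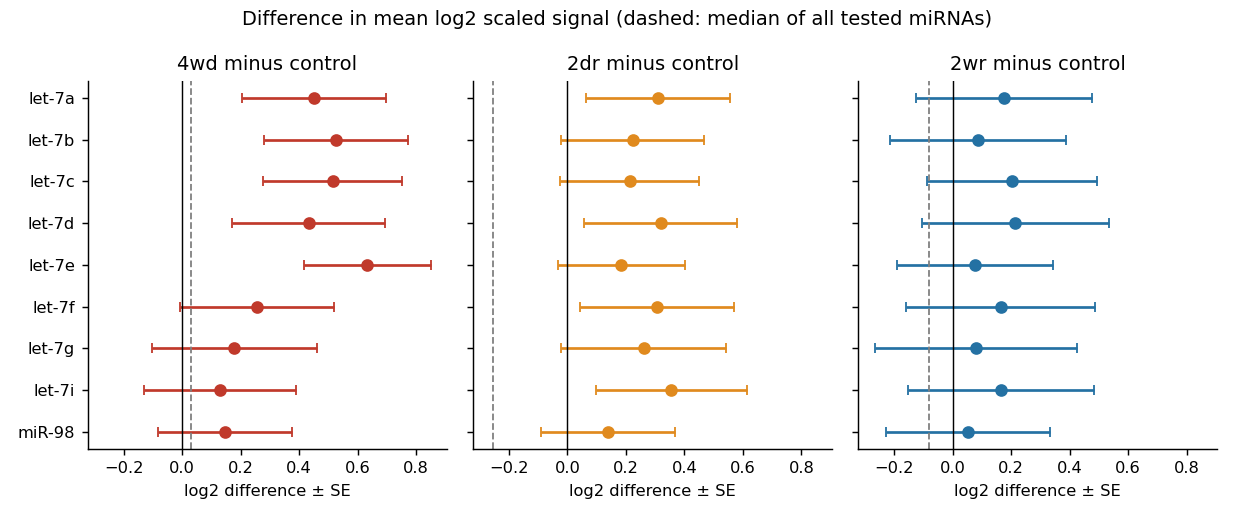
Difference in mean log2 scaled signal from control for each member at 4wd, 2dr and 2wr (points), with the SE from limma (bars). The dashed line is the median over all 225 tested miRNAs (0.03, -0.25 and -0.08). The points lie to the right of 0 in all 3 panels, with the widest spread between members at 4wd, from 0.13 to 0.63.

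let-7e differed most at 4wd. Its log2 scaled signal on the control arrays was 1.59, 1.29, 0.93 and 1.31, and on the 4wd arrays 2.31, 1.90, 1.62 and 1.82. The lowest 4wd array stood just above the highest control array. The difference was 0.63 (SE 0.22), or 1.55-fold, with an exact two-sided permutation p of 0.0286, the smallest that 4 arrays against 4 can give, and a limma adjusted p of 0.402 over the 225 miRNAs. On the 2dr arrays the values were 1.72, 1.502, 1.18 and 1.46, and on the 2wr arrays 1.55 and 1.16. Only 1 of these 6 arrays was above the highest control array. Both 2wr arrays were below every 4wd array, as they were for 9.33% of all tested miRNAs, by 0.56 in the mean (exact permutation p = 0.133, the smallest that 2 against 4 allows, and limma adjusted p = 0.886). At 2dr the mean was 0.45 below 4wd (exact permutation p = 0.0571, limma adjusted p = 0.302).

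let-7b and let-7c, whose sequences differ from each other by 1 base and whose hairpins neighbour each other at 1 locus, followed at 4wd. let-7b gave 2.98, 2.99, 2.97 and 2.54 in control and 3.90, 3.65, 2.86 and 3.18 at 4wd. 3 of the 4 treated arrays were above every control array and the other was inside the control range. The difference was 0.53 (SE 0.25, exact permutation p = 0.114, limma adjusted p = 0.492). let-7c gave 3.74, 3.57, 3.38 and 3.25 in control and 4.53, 4.16, 3.56 and 3.75 at 4wd. Again 1 treated array fell inside the control range. The difference was 0.51 (SE 0.24, exact permutation p = 0.114, limma adjusted p = 0.484).

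let-7a, the brightest member, and let-7d, a neighbour of let-7a-1, had nearly the same profile over the arrays. let-7a gave 4.09, 3.72, 3.27 and 3.63 in control and 4.56, 4.22, 3.73 and 3.99 at 4wd. The difference was 0.45 (SE 0.25, exact permutation p = 0.114, limma adjusted p = 0.553). Every 4wd array was above the control mean, and 2 were above the highest control array. let-7d gave 2.48, 2.12, 1.65 and 2.03 in control and 2.94, 2.61, 2.08 and 2.39 at 4wd, a difference of 0.43 (SE 0.26, exact permutation p = 0.171, limma adjusted p = 0.553). For let-7d as well, 2 of the 4 treated arrays were above the highest control array.

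The other members differed less. let-7f, which shares a locus with let-7a and let-7d, differed by 0.26 (SE 0.26) at 4wd, let-7g by 0.18 (SE 0.28), miR-98 by 0.15 (SE 0.23) and let-7i by 0.13 (SE 0.26). Their limma adjusted p lay between 0.806 and 0.960. For each of these 4 the SE was as large as the difference or larger, and their arrays overlapped between the groups. let-7f ranged from 2.61 to 3.83 in control and from 3.22 to 3.88 at 4wd. let-7i ranged from 1.35 to 2.09 in control and from 1.37 to 2.40 at 4wd.

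**Figure D2:**
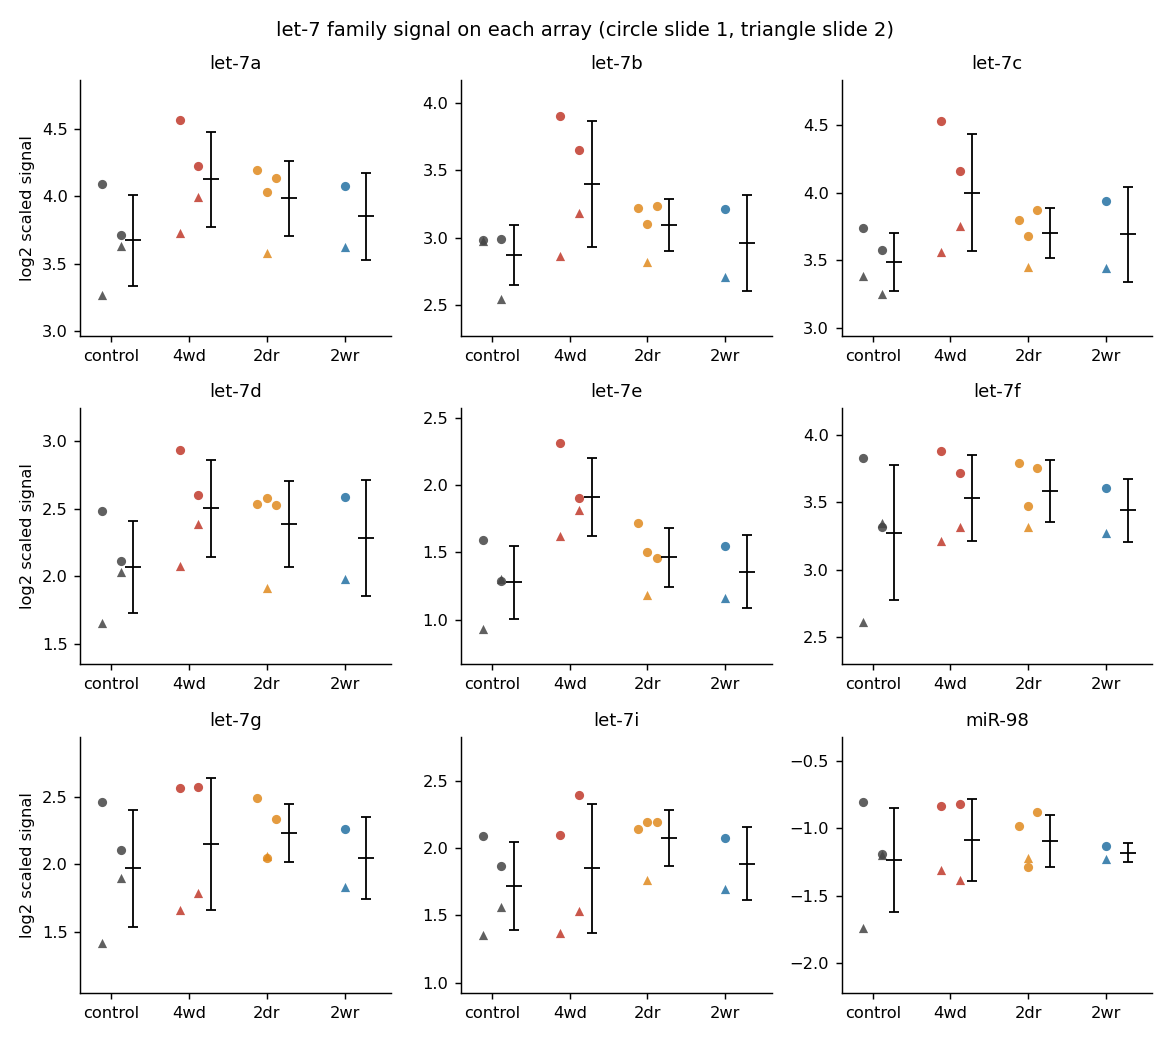
log2 scaled signal of each member on each array by group, with circles for slide 1 and triangles for slide 2, and the mean ± SD beside each group (n = 4, 4, 4 and 2). The vertical span is the same in every panel. let-7e is the only panel in which all 4wd points lie above all control points, and triangles lie below circles in most groups.

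After 2 days of regular diet, all 9 means were again above control, by 0.14 for miR-98 to 0.36 for let-7i (SE 0.26, limma adjusted p = 0.498), with a median of 0.26. Over all tested miRNAs the median was -0.25 and 28.4% had a higher mean. The median of the members was 0.54 with the percentile over all mouse miRNAs and 0.52 in the authors' processed values, beside 0.03 and 0.01 over all tested miRNAs. Without scaling all 9 were lower, with a median of -0.14 beside -0.65 over all tested miRNAs. With normexp, a background model described below, these medians were 0.17 and 0.13. let-7i gave 2.14, 2.19, 1.76 and 2.19 at 2dr, so that 3 of 4 arrays were above the highest control array at 2.09. Those 3 arrays were on slide 1, and the array at 1.76 was the only 2dr array on slide 2, where the members read lower. With the slide as a block in the fit the difference of let-7i at 2dr was 0.22 (SE 0.15). After 2 weeks the 9 differences ran from 0.05 for miR-98 to 0.21 for let-7d, with a median of 0.16, beside a median of -0.08 and 39.1% with a higher mean over all tested miRNAs. All 9 overlapped control at both times, where 5.78% of all tested miRNAs at 2dr and 6.67% at 2wr did not. The 3 comparisons share the same 4 control arrays, so a low control array lifts all of them. Control replicate 3 was the lowest control array for 7 of the 9 members, let-7b and let-7c being the others, and without it 8 of 9 means were higher at 2dr and 5 of 9 at 2wr. At 2wr no scaling put all 9 members below control, with a median of -0.26 beside -0.49 over all tested miRNAs. A fit with the replicate number as a block put 8 of 9 below control at 2wr (median -0.086). That block sets 2wr replicate 2, on slide 2, with replicate 2 of the other groups, on slide 1, where the members read higher. With the slide as a block the median at 2wr was 0.16. With normexp the median at 2wr was 0.04 for the members and 0.09 for all tested miRNAs. At 2wr the median difference was 0.34 without 2wr replicate 2 and -0.05 without 2wr replicate 1.

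Between 4wd and 2dr the members did not move together in the fit reported. let-7e was 0.45 lower at 2dr, let-7b and let-7c were each 0.30 lower, and let-7i was 0.23 higher (limma adjusted p between 0.302 and 0.595 for these 4). The median over the 9 members was -0.11, and over all tested miRNAs -0.30. The direction of the members' median depended on the scaling and the background correction. It was 0.21 with the percentile over all mouse miRNAs, 0.16 with quantile normalization, 0.23 in the authors' processed values and 0.46 without scaling. With normexp it was 0.34, and -0.041 when 13 spots of high local background, described below, were left out. With the slide as a block in the fit the median of the members was -0.25, beside -0.23 over all tested miRNAs. In that fit let-7i was 0.086 higher at 2dr (SE 0.15), and every other member was lower, by 0.06 for let-7g to 0.54 for let-7e. From 4wd to 2wr the median was -0.22, beside -0.11 over all tested miRNAs. This median was -0.0014 with the percentile over all mouse miRNAs, 0.074 with quantile normalization and 0.0049 in the authors' processed values. It was 0.34 without scaling, 0.19 with normexp and -0.18 with normexp without the spots of high local background. From 2dr to 2wr the median of the members was -0.13.

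The 14 arrays came from 2 slides, scanned as 2 batches, and the slide was visible in every member. Slide 1 held control replicates 1 and 2, 4wd replicates 1 and 2, 2dr replicates 1, 2 and 4 and 2wr replicate 1, and slide 2 held the rest. In each of the 4 groups, each of the 9 members had a lower mean on slide 2, by 0.10 to 0.84 on the log2 scale. Within slides the 4wd difference of let-7e was 0.67 on slide 1 and 0.60 on slide 2, and that of let-7a was 0.49 and 0.41. let-7b differed by 0.79 on slide 1 and 0.26 on slide 2, and let-7c by 0.69 and 0.34. let-7i differed by 0.27 on slide 1 and by -0.0071 on slide 2. For the other members both within-slide differences at 4wd were above 0. Each rests on 2 arrays against 2. With the slide as a block the SE of let-7e at 4wd was 0.15 and its limma adjusted p 0.142, and 5 of 9 members had an unadjusted p under 0.05, as had 17.8% of all tested miRNAs in that fit, and no member was called. 2dr had 1 array on slide 2 and 3 on slide 1, and with the slide as a block the median of the members at 2dr was 0.12.

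The direction at 4wd also depended on the scaling between arrays. Before any scaling the summed signal of the 9 members was 23249 ± 8571 units at 4wd (SD, n = 4), below the 34662 ± 12950 of control, and all 9 members had a lower mean, by 0.34 to 0.84 on the log2 scale. The 4wd arrays were dimmer as a whole. The median over all tested miRNAs was -0.93 without scaling, so the median of the members, -0.54, was 0.39 above it. Quantile normalization gave a median of 0.11 for the members and 0.02 for all tested miRNAs. The values the authors deposited as processed gave 0.35 and -0.02.

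The background correction also changed the median. With normexp, a model of background and signal fitted to each array, the median of the members at 4wd was -0.12 and that of all tested miRNAs 0.82. On 4wd replicate 1, 13 spots had a local background over 1000 units, up to 61941, while the highest local background on the other arrays was 63. None of these spots was a spot of a member. The median normexp signal of that array was 731, and it was 58 to 70 on the others. When the 13 spots were left out of the model, a choice made after seeing the data, that median was 78.7 and all 9 members were again above control, with a median of 0.26. The median of all tested miRNAs was then 0.46, so the members lay below it.

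**Figure D3:**
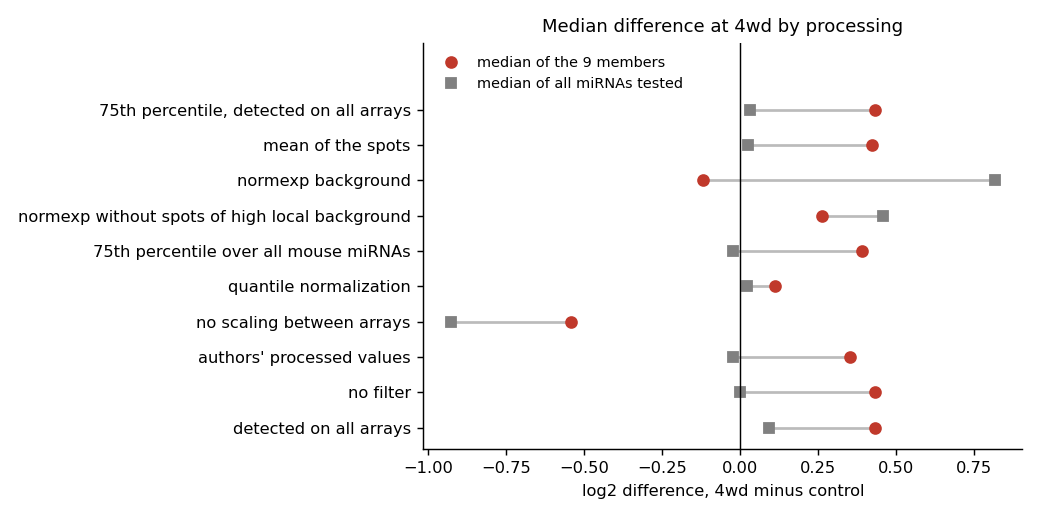
Median log2 difference between 4wd and control over the 9 members (circles) and over all tested miRNAs (squares) under each way of correcting, scaling or filtering the signals. The top row is the scaling used throughout. The members lie right of 0 in all rows but 2, at -0.54 without scaling and -0.12 with normexp, and right of all tested miRNAs in all rows but the 2 of normexp.

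Shares of the signal need no scaling between arrays. The family held 25.3 ± 4.1% of all mouse miRNA signal in control, 29.5 ± 5.3% at 4wd, 29.9 ± 3.5% at 2dr (SD, n = 4 each) and 27.6 ± 3.6% at 2wr (n = 2). The control arrays ran from 19.7 to 28.8% and the 4wd arrays from 23.7 to 36.6%, so the groups overlapped. From normexp signals without the 13 spots the shares were 19.1 ± 3.9% in control and 18.3 ± 3.9% at 4wd.

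Within the family the shares of the members were similar in all groups, with let-7a between 21.6 and 24.9% on all 14 arrays. let-7e held 4.22, 4.20, 4.27 and 4.79% of the family signal in control and 4.96, 4.47, 5.58 and 5.51% at 4wd. 3 of the 4 treated arrays were above the highest control array. let-7i held 5.97, 6.27, 5.73 and 5.72% in control and 4.29, 6.28, 4.69 and 4.52% at 4wd. Here 3 treated arrays were below the lowest control array and the other was level with the highest control array. let-7f held 17.6 ± 2.9% in control and 15.7 ± 0.9% at 4wd, and let-7g 7.08 ± 0.75% and 6.05 ± 0.74% (SD, n = 4).

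In the fit reported, the members also sorted at 4wd by the middle of the sequence, a grouping noticed after the values were seen and given without a test. The 5 members with the let-7a bases at positions 11 and 12 (let-7a to let-7e) differed from control by 0.43 to 0.63. The 4 that depart from let-7a there (G12A in let-7f, G12U in let-7g and let-7i, G11A in miR-98) differed by 0.13 to 0.26. On slide 1 alone the sets kept apart, but on slide 2 they overlapped, with 0.26 for let-7b and 0.28 for let-7f. With normexp let-7a to let-7d were at -0.15 to -0.062 and let-7f, let-7g and let-7i at -0.37 to -0.33. miR-98, of the second set, was then above control, so the sets overlapped there too. The members of the let-7a-1 locus fell on both sides, since let-7a and let-7d are in the larger set and let-7f is in the other. let-7a to let-7e together held 65.6, 68.4, 73.9 and 66.5% of the family signal on the control arrays and 74.4, 70.3, 72.0 and 73.9% on the 4wd arrays. Control replicate 3 was as high as the 4wd arrays, and the other 3 control arrays were below all of them. At 2dr the share was 66.7 to 69.7% and at 2wr 68.0 to 70.0%, and the differences of the 2 sets from control overlapped at both times.

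**Figure D4:**
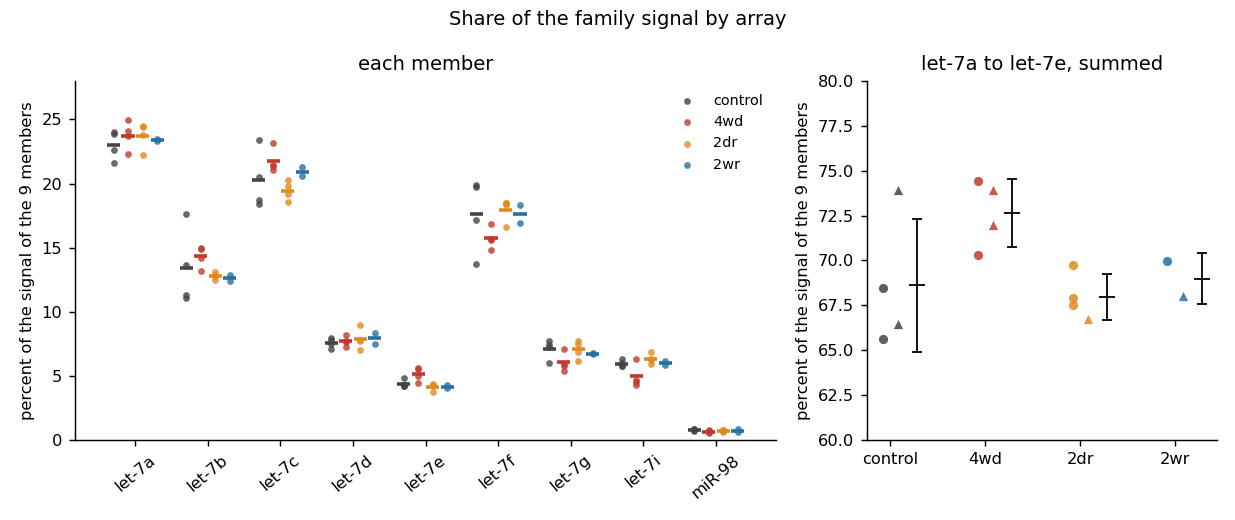
Share of the summed signal of the 9 members held by each member (left, percent; points are arrays, lines are group means) and by let-7a to let-7e together (right, percent; circles slide 1, triangles slide 2, mean ± SD; the axis starts at 60). let-7a to let-7e held 70.3 to 74.4% at 4wd and 65.6 to 73.9% in control, where 1 of 4 arrays reached the 4wd range.

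Each member was measured by 2 probes, and the probes of a member gave like differences. All 18 probes had a higher mean at 4wd than in control, by 0.07 to 0.64, and all 18 did at 2dr and at 2wr. The widest gap between the 2 probes of a member at 4wd was 0.14, for let-7f (0.29 and 0.15). For let-7e the probes gave 0.64 and 0.63, but the 4wd and control arrays were apart for 1 of these 2 probes and overlapped for the other. Of the other 16 probes, 1 of let-7c had its 4wd arrays above all control arrays. The share of all probes of the array that did so was not computed.

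Over the 14 arrays the members varied together. The 36 pairs had Pearson correlations of 0.49 to 0.99 (median 0.80), and of 0.14 to 0.97 (median 0.60) once each slide was centred. The arrays share slide and scaling, so these are descriptions. let-7a and let-7d, which share a locus, were the closest pair at 0.99, and let-7e and let-7i the least alike at 0.49. The other miRNAs most like the mean of the members, of 161 detected on all 14 arrays, were miR-107 (0.89), miR-29a (0.84), miR-29b* (0.83), miR-331-3p (0.78) and miR-329 (0.78), against a median of 0.16. With each slide centred these were 0.66, 0.66, 0.79, 0.48 and 0.44.

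The opposite strands of the let-7 hairpins, marked with a star, were near or below detection. Of 7 on the array, let-7d* was detected on all 14 arrays, let-7a* on 3 and the other 5 on none. let-7d* differed from control by -0.04 (SE 0.31) at 4wd, -0.58 (SE 0.31) at 2dr and 0.01 (SE 0.38) at 2wr, where let-7d itself differed by 0.43, 0.32 and 0.21.

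The miRNAs listed beforehand as carried on the transcripts of let-7 hairpins were miR-99a, miR-99b, miR-100, miR-125a-5p and miR-125b-5p. In the annotation used, miR-99a, miR-100 and miR-125a were listed within 10 kb of a let-7 hairpin. Whether miR-99b and miR-125b also lie that near was not checked. All 5 were tested, and none was called at 4wd, 2dr or 2wr. At 4wd 4 of the 5 had a higher mean, with a median difference of 0.14. miR-125a-5p, listed beside let-7e, differed by 0.55 (SE 0.26, limma adjusted p = 0.504), and miR-100, listed beside let-7a-2, by -0.60 (SE 0.31, limma adjusted p = 0.553). miR-125b-5p was the brightest of the 5 and differed by 0.29 (SE 0.17), and miR-99b was the dimmest and differed by 0.04 (SE 0.24).

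Of other bright brain families, the 5 miR-30 members had a median of -0.21 at 4wd, -0.54 at 2dr and -0.35 at 2wr. The 3 miR-29 members had medians of 0.31, -0.03 and -0.07. Among the 57 brightest of the tested miRNAs, without the 8 let-7 members in that set, the medians were 0.09, -0.10 and 0.02. No miRNA of these 2 families was called.

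Markers of the cell types that the tissue can hold are given beside these values. The oligodendrocyte markers miR-219 and miR-338-3p were detected on all arrays, differed by -0.83 (SE 0.57) and -1.17 (SE 0.49) at 4wd, and had a summed scaled signal of 1.92 to 10.9 in control and 1.44 to 2.63 at 4wd. Neither was called (limma adjusted p = 0.601 and 0.402). Of the myeloid markers 4 of 5 were tested. miR-155, an inflammatory miRNA, was called higher at 4wd (limma adjusted p = 0.0385) and at 2dr (limma adjusted p = 0.00222). It was detected on none of the 4 control arrays, on 1 of 4 at 4wd and on 4 of 4 at 2dr, so that the size of its difference from control rests on values near background and is not given. The other myeloid markers were not called and did not differ in 1 direction. At 4wd miR-142-3p differed by 1.69 (SE 0.74, limma adjusted p = 0.428, detected on 2 of 4 control arrays), miR-342-3p by 0.23 (SE 0.22, limma adjusted p = 0.802) and miR-223 by -0.91 (SE 0.55, limma adjusted p = 0.552). miR-223 was detected on 4 of 4 control arrays and 0 of 4 at 4wd. The sizes given for miR-142-3p and miR-223 thus also rest on values near background. The summed signal of the myeloid markers, most of it from miR-342-3p, was 0.950 to 1.14 in control and 1.13 to 1.41 at 4wd. The neuronal markers miR-124, miR-128 and miR-137 summed to 18.7 to 25.0 in control and 10.6 to 34.97 at 4wd, and the red blood cell markers to 0.465 to 0.986 and 0.363 to 0.602, with miR-144 detected on no array. The part of these cell types in the let-7 values was not tested. In tissue RNA, fewer cells of a type and less of a miRNA per cell cannot be told apart.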

How the data were processed

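Corpus callosum RNA (100 ng per sample) was read on 14 single-colour Agilent mouse miRNA arrays. The deposited scanner files hold signal intensity per spot, probe and miRNA, from which the authors' image software (Feature Extraction 10.5.1.1, per the file headers) had subtracted background. It also gave each miRNA a detection flag, deposited as 1 or 0. The flag was used here to choose the miRNAs for scaling, for the floor and for testing. The authors also deposited log2 values of the same arrays, scaled in GeneSpring per the methods, which were used as an alternative. The array design was annotated on mm9, so no coordinates are given, and sequences come from RefSeq by name.

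The total signal of each miRNA was divided by its array's 75th percentile (taken across 170 miRNAs that all 14 arrays detected), floored at 0.00176 and put on the log2 scale. Of 566 mouse miRNAs, the 225 that all arrays of 1 or more groups detected were tested in a single limma fit (version 3.58.1, R 4.3.3) of the 4 groups, with Benjamini-Hochberg adjustment. A call needed an adjusted p under 0.05 and a 2-fold difference. The 10 viral miRNAs were left out. Exact two-sided permutation tests (54, for 9 members in 6 comparisons, unadjusted) used scipy 1.17.1. The fit was tested on simulated data. p-values measure the spread between arrays, and the number of arrays limits their precision. Beyond the members, miRNAs were named by fixed lists (star forms, transcript partners of let-7 hairpins, cell markers, comparison families) and the 5 most correlated miRNAs. The members and lists were chosen with earlier results of these data known.

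Replicate numbers were not used as pairs in the fit reported, because no source ties them to a shared animal or batch and not every same-numbered pair was correlated. Of 18 such pairs 13 also shared a slide, and the part of the slide in their correlation was not tested. Alternatives changed the summary of spots, background, scaling, filter, slide, replicate block, groups fitted, test and fold limit, and left out each array in turn.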

Additional observations from a re-analysis of the deposited data

Results flagged for a closer look

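On the log2 scaled signal, each member was checked in each of the 3 groups of 4 arrays (27 checks) for an array that stood apart from its group by Dixon's ratio, the gap to the nearest array over the range of the group, at the level that chance alone passes in about 1 of 20 groups. This was so for 3 of 27, and 2 of the 3 were the same array, so the checks are not independent. let-7b on control replicate 4 was 2.54, below the other control arrays. let-7d on 2dr replicate 3 was 1.91 and let-7i on the same array 1.76, each the lowest of its group. 2dr replicate 3 is the only 2dr array on slide 2.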

How the results depend on the processing

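Under none of the 14 other settings (the one chosen after seeing the data included) nor with any of the 14 arrays left out was a member called in any of the 6 comparisons. Against control the largest difference of a member was -0.84, for let-7i at 4wd without scaling, which is under 2-fold. There only the fit with no minimum fold could have called a member, and its lowest limma adjusted p at 4wd was 0.402. Among all tested miRNAs the calls at 4wd numbered 1, and between 0 and 2 under the alternatives other than normexp, which gave 81. It was 0 in 9 of the 14 fits that left out an array, namely without control replicates 1, 2 or 3, 4wd replicates 1, 2 or 3, or 2dr replicates 1, 2 or 3. The limma adjusted p of let-7e at 4wd ranged from 0.0747 to 0.802 over the alternatives.

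Without scaling between arrays the median of the members against control was -0.54 (4wd), -0.14 (2dr) and -0.26 (2wr), 0.46 for 2dr against 4wd and 0.34 for 2wr against 4wd. In that setting the members from let-7a to let-7g, let-7i and miR-98 were, in this order, at -0.52, -0.45, -0.46, -0.54, -0.34, -0.72, -0.80, -0.84 and -0.83 at 4wd. At 2dr they were at -0.093, -0.18, -0.19, -0.083, -0.22, -0.095, -0.14, -0.047 and -0.26. At 2wr they were at -0.24, -0.33, -0.22, -0.20, -0.34, -0.25, -0.34, -0.26 and -0.37. No scaling leaves in the dimness of whole arrays.

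With normexp the median was -0.12 at 4wd, 0.34 for 2dr against 4wd and 0.19 for 2wr against 4wd. Without the spots of high local background these medians were 0.26, -0.041 and -0.18. At 4wd let-7a was at -0.12, let-7b at -0.062, let-7c at -0.073, let-7d at -0.15, let-7f at -0.33, let-7g at -0.37 and let-7i at -0.34. At 2wr let-7g was at -0.0025 with normexp, with and without the spots of high local background. The share of all signal at 4wd minus control was 4.20 percentage points as reported, -5.20 with normexp and -0.771 without those spots. The authors' processed values gave a median of 0.23 for 2dr against 4wd, and quantile normalization put let-7b at -0.16 at 2wr. The cause was not tested.

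With the replicate block, the median of the members at 2wr was -0.086, and the members at 2wr were at -0.031 (let-7a), -0.097 (let-7b), -0.0082 (let-7d), -0.090 (let-7e), -0.038 (let-7f), -0.18 (let-7g), -0.086 (let-7i) and -0.097 (miR-98). Same-numbered arrays of different groups formed 18 pairs, of which 13 had correlated deviations (above 0.1, range -0.614 to 0.741), and the pairing by number was not adopted. The block changed no call of a member. It sets 2wr replicate 2, on slide 2, with arrays of the same number on slide 1.

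Leaving out single arrays, the 4wd differences ran from -0.0063 to 0.34 for let-7g, from -0.052 to 0.29 for let-7i and from -0.021 to 0.29 for miR-98. At 2dr miR-98 ran from -0.028 to 0.28. At 2wr the ranges were -0.053 to 0.40 for let-7a, -0.16 to 0.34 for let-7b, -0.047 to 0.45 for let-7c, -0.089 to 0.52 for let-7d and -0.11 to 0.27 for let-7e. They were -0.057 to 0.35 for let-7f, -0.14 to 0.29 for let-7g, -0.026 to 0.36 for let-7i and -0.11 to 0.20 for miR-98. The median of the members kept its direction with any array left out at 4wd (0.29 to 0.57) and at 2dr (0.17 to 0.42), and at 2wr it ran from -0.053 to 0.34.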
